A study of Mesocricetus auratus with 8 samples.

Results

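The Hippo genes described here were 10 rows of a heart count table, taken by name out of 20360 rows. They were Tead1 and Tead4, which encode DNA-binding TEAD factors, Yap1 and Wwtr1, which encode the coactivators YAP and TAZ, Vgll4, the kinase genes Lats1 and Lats2, and the mechanosensitive targets Ctgf, Cyr61 and Ankrd1. They were chosen by pathway name with the spread of their counts over these same 8 libraries in view, so their levels stand as a description without a test. The table held 8 polyA RNA libraries, each from the heart of a different female golden hamster (Mesocricetus auratus) of 25 weeks. According to the series design, each animal was either wild type or had lost heterozygosity at Myh6, the alpha cardiac myosin heavy chain gene, and was sampled before the onset of dilated cardiomyopathy. The labels give each animal only a code, from M5F5 to M5F56, and a genotype for none of them. Genotypes could therefore not be compared, and the libraries stand as single samples.

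The Hippo pathway is a kinase cascade that holds back tissue growth. Its last kinases, LATS1 and LATS2, phosphorylate YAP and TAZ and keep them out of the nucleus. Unphosphorylated YAP and TAZ enter the nucleus and bind TEAD factors on DNA, where VGLL4 competes with them for the same surface, and stretch or a stiff matrix favours the nuclear form. In mice, YAP drives cardiomyocyte proliferation around birth, and deletion of Tead1 from the adult heart muscle leads to dilated cardiomyopathy.

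Levels are given as CPM, counts scaled to library size, with the exact 95% Poisson interval in parentheses where it is needed. Total counts per library ranged from 13608500 to 15255764, and the limit that a count of 0 allows, 3 counts, was 0.199 to 0.214 CPM. The heart identity of the libraries was checked with 8 cardiomyocyte markers, all measured, whose summed level ranged from 48324 CPM in M5F12 to 65652 in M5F7. Of the listed atrial markers Nppa and Myl4 were measured, Nppa at 53.2 to 971 CPM and Myl4 at 3.26 to 7.51 CPM, Bmp10 was at 0 in all libraries and Sln had at most 14 counts. The atrial list, with Myl7 not among the rows, summed to 58.0 CPM in M5F12 and up to 977 in M5F5. Nppa, also listed as a stretch and wall-stress gene, gave 53.2 and 971 CPM of these sums. Among 10909 measured genes, those with a mean count of at least 50, the highest library was most often M5F7 (17.7% of genes) and M5F19 (16.9%), and least often M5F55 (6.01%).

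The Hippo genes divided into a steady set and a variable set. Of the 9 that were measured, 5 had a highest library at least 2-fold above the lowest, namely Tead1, Tead4, Ctgf, Cyr61 and Ankrd1, and that range was reached by 13.9% of all measured genes. The other 4, Wwtr1, Vgll4, Lats1 and Lats2, spanned 1.41-fold to 1.54-fold, close to the median measured gene at 1.45-fold. Because the choice of genes drew on such values, nothing follows from a share above the background. Yap1 fell short of the count filter. Tead1 and Ctgf also spanned 2-fold by the trimmed range, from second-highest to second-lowest library, which 2.85% of measured genes did. The Poisson intervals of the highest and lowest library were apart for all 9, and for 88.9% of measured genes.

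**Figure D1:**
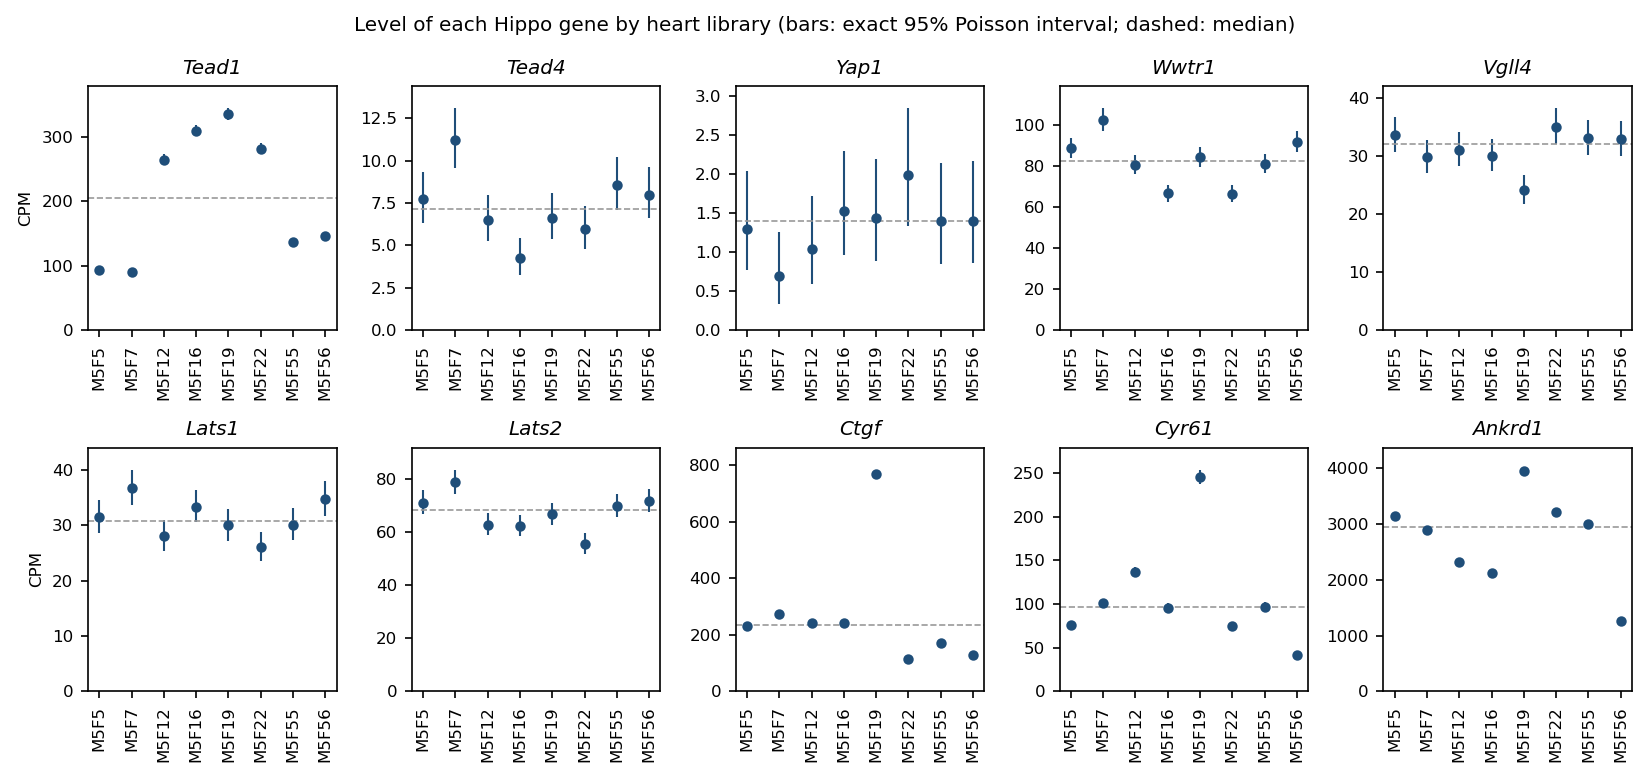
Level of each of the 10 Hippo genes in CPM (vertical axis, from 0) in each of the 8 heart libraries (horizontal axis), with bars for the exact 95% Poisson interval and a dashed line at the median. Tead1 lies at 265 CPM or above in 4 libraries and at 146 or below in the other 4, while Ctgf stands out at 769 CPM in M5F19.

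Tead1, whose product binds the MCAT elements of cardiac muscle gene promoters, was at 336 CPM in M5F19, 310 in M5F16, 282 in M5F22, 265 in M5F12, 146 in M5F56, 137 in M5F55, 93.7 in M5F5 and 89.3 in M5F7. Its high libraries were M5F12, M5F16, M5F19 and M5F22, and the next library, M5F56, lay 1.82-fold below the lowest of them. The fold between M5F19 and M5F7 was 3.76 (95% counting interval 3.54 to 4.0). Between the second-highest and second-lowest libraries it was still 3.31, a wider trimmed range than that of 99.7% of measured genes. Counts behind these levels ran from 1303 to 4916, and the Poisson intervals were apart in 26 of 28 pairs of libraries. The pairs that overlapped were M5F56 with M5F55 and M5F5 with M5F7. Without molecular identifiers, reads can repeat a molecule, so the intervals cover counting error only.

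Tead4, a paralog best known for its role in the trophectoderm of the mouse embryo, did not share the order of Tead1. It was at 11.2 CPM in M5F7 (9.58 to 13.1), 8.54 in M5F55, 7.99 in M5F56, 7.71 in M5F5, 6.62 in M5F19, 6.52 in M5F12, 5.94 in M5F22 and 4.24 in M5F16 (3.26 to 5.41). The 4 libraries highest for Tead4 were the 4 lowest for Tead1. Counts were only 64 to 164 per library, and no neighbours in this order had intervals apart, although 8 of the 28 pairs did. The fold of 2.65 (1.98 to 3.60) rested on both ends, and it was 1.89 without M5F16 and 2.01 without M5F7.

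The count ratio of Tead4 to Tead1, which compares libraries and not the genes themselves, ran from 0.0137 in M5F16 to 0.126 in M5F7, a 9.21-fold change. Of the other TEAD genes, Tead2 ran from 9.67 CPM in M5F56 to 19.6 in M5F7 (2.02-fold) and Tead3 from 12.4 to 17.8 CPM between the same libraries (1.44-fold). Neither had its highest value in a library where Tead1 was high. How reads shared between TEAD paralogs were assigned is not given in the sources used here.

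Markers of other cells differed between the same libraries. The summed level of the 8 endothelial markers, all measured, was 1667 CPM in M5F7, 1468 in M5F5, 1395 in M5F55 and 1225 in M5F56, against 1000 to 1063 in M5F12, M5F16, M5F19 and M5F22. Those first 4 libraries were also the 4 highest for Tead4 and for Lats2, and the 4 lowest for Tead1. No neighbours in the order of Tead4 or of Lats2 had intervals apart. Among the endothelial markers, Tie1 and Egfl7 kept the split of the sum, but Pecam1 and Flt1 did not. Pecam1 was at 209 CPM in M5F12 and 153 in M5F56, and Flt1 at 215 CPM in M5F22 and 193 in M5F56. The cardiomyocyte sum was highest in M5F7 (65652 CPM) and M5F5 (65274), where Tead1 was lowest. Tnni3, Myl2, Myl3 and Ttn were also highest in those libraries, and Tnnt2 was highest in M5F7. The remaining listed markers, Pln, Ryr2 and Actc1, had other orders. Pln was highest in M5F22, with M5F5 next. Ryr2, the calcium release channel, was lowest in M5F5 (1128 CPM) and M5F7 (1172) and highest in M5F19 (1636) and M5F16 (1626), and Actc1, cardiac alpha actin, was highest in M5F22 and M5F19. The part of cell mixture in the Tead1 and Tead4 levels was not tested, and in bulk tissue fewer cells of a type and less RNA per cell cannot be told apart.

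The coactivator Yap1 was scarcely detected. Its row held 10 counts in M5F7, 15 in M5F12, 18 in M5F5, 20 in M5F55, 20 in M5F56, 21 in M5F19, 23 in M5F16 and 29 in M5F22, which is 0.685 CPM (0.329 to 1.26) to 1.98 CPM (1.33 to 2.84). Only M5F22 and M5F7 had intervals apart, 1 of 28 pairs, and the ratio of their levels was 2.89 (1.37 to 6.65). The intervals of all other pairs overlapped, which at this depth does not show that their levels were equal. Transcript lengths are not given in the table, so these counts were not set against those of other genes. Whether the annotation used covers the whole Yap1 transcript could not be checked, so the low counts are not read as near absence.

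Wwtr1, the gene of TAZ, was at 102 CPM in M5F7, 91.6 in M5F56, 88.6 in M5F5, 84.1 in M5F19, 80.8 in M5F55, 80.2 in M5F12, 66.5 in M5F16 and 66.4 in M5F22. M5F7 stood above its neighbour M5F56, and M5F12 above M5F16, beyond counting error, while the other 5 neighbouring pairs overlapped. The whole span was 1.54-fold (1.42 to 1.67). The row named Taz was left aside, as that symbol also stands for the mitochondrial enzyme tafazzin.

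Vgll4, whose product displaces YAP from TEAD factors, varied least by the trimmed range, at 1.13-fold, and 14.5% of measured genes had a narrower one. Its levels were 35.1 CPM in M5F22, 33.6 in M5F5, 33.1 in M5F55, 33.0 in M5F56, 31.1 in M5F12, 30.1 in M5F16, 29.9 in M5F7 and 24.2 in M5F19. Only M5F19 lay apart from its neighbour, and without that library the full span of 1.45-fold was 1.17-fold. M5F19 was thus lowest for Vgll4 and highest for Tead1, and the count ratio of Vgll4 to Tead1 ran from 0.0720 in M5F19 to 0.359 in M5F5. The related Vgll3 ran from 6.10 CPM in M5F12 to 10.7 in M5F56, Vgll1 had no count, which allows up to 0.199 to 0.214 CPM, and Vgll2 had at most 2 counts.

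The kinase genes Lats1 and Lats2 were among the steady members. Lats1 was at 36.7 CPM in M5F7, 34.7 in M5F56, 33.3 in M5F16, 31.5 in M5F5, 30.1 in M5F55, 30.0 in M5F19, 28.1 in M5F12 and 26.0 in M5F22. No neighbours in this order were apart, and the span was 1.41-fold (1.24 to 1.61). Lats2, itself a transcriptional target of YAP, was at 78.7 CPM in M5F7, 71.6 in M5F56, 71.0 in M5F5, 69.9 in M5F55, 66.6 in M5F19, 62.7 in M5F12, 62.2 in M5F16 and 55.6 in M5F22, a span of 1.42-fold (1.29 to 1.55). M5F7 and M5F22 were the highest and the lowest library for both kinases and for Wwtr1. The count ratio of Lats1 to Lats2 stayed between 0.430 in M5F55 and 0.536 in M5F16, a 1.25-fold change.

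**Figure D2:**
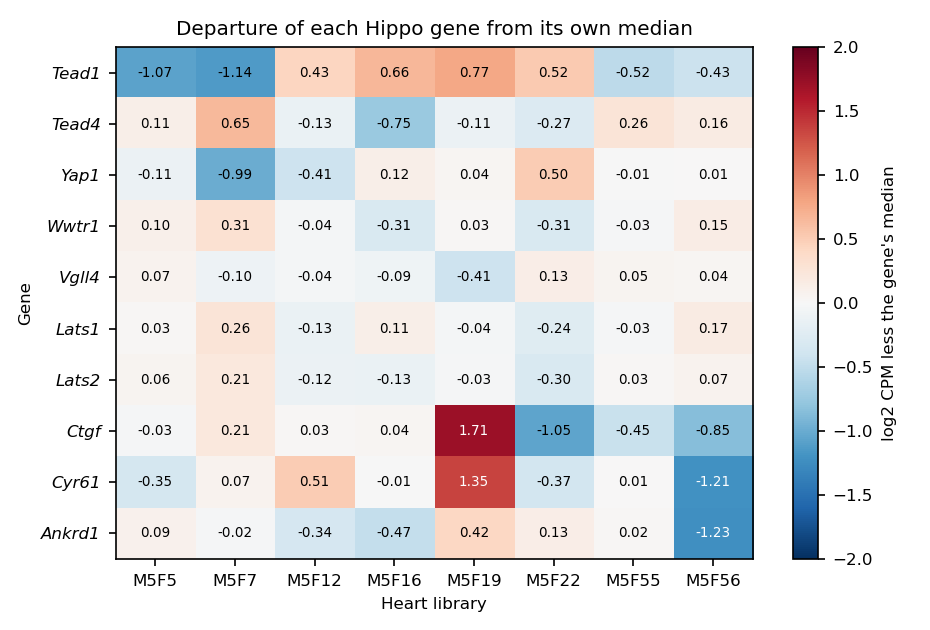
Departure of each Hippo gene from its own median over 8 libraries, in log2 CPM (colour and printed value). Tead1 is 1.07 and 1.14 below its median in M5F5 and M5F7 and 0.77 above it in M5F19, whereas Lats1 and Lats2 stay within 0.30 of theirs in every library.

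Ctgf, a secreted matricellular protein and the most used readout of YAP activity, was at 769 CPM in M5F19 (755 to 784), 272 in M5F7, 241 in M5F16, 240 in M5F12, 230 in M5F5, 172 in M5F55, 130 in M5F56 and 113 in M5F22. M5F19 stood 2.82-fold above the next library, M5F7. M5F7 stood above M5F16 beyond counting error, while the intervals of M5F16, M5F12 and M5F5 overlapped. The fold from highest to lowest was 6.80 (6.46 to 7.17), a wider range than that of 99.7% of measured genes, and it was 2.41 without M5F19. Its trimmed fold of 2.10 was 1.86 without M5F7 or without M5F19, 1.58 without M5F22 or without M5F56, and 1.99 when libraries were scaled by total counts.

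Cyr61, a related matricellular gene that is also induced within minutes by serum, was highest in M5F19 as well. It was at 246 CPM in M5F19, 137 in M5F12, 101 in M5F7, 97.1 in M5F55, 95.6 in M5F16, 75.6 in M5F5, 74.4 in M5F22 and 41.7 in M5F56. Both M5F19 at the top and M5F56 at the bottom lay apart from their neighbours beyond counting error. The fold of 5.89 (5.40 to 6.43) was 3.29 without M5F19 and 3.30 without M5F56. The count ratio of Ctgf to Cyr61 ran from 1.52 in M5F22 to 3.13 in M5F19, a 2.06-fold change, and was 3.12 in M5F56, where both genes were low. The RefSeq table of genes uses the newer names Ccn2 and Ccn1 for this pair.

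Ankrd1, a cardiac ankyrin repeat protein that binds titin and is induced by stretch, was at 3945 CPM in M5F19, 3225 in M5F22, 3137 in M5F5, 2994 in M5F55, 2898 in M5F7, 2326 in M5F12, 2126 in M5F16 and 1255 in M5F56. Every neighbouring pair in this order was apart beyond counting error, with 17914 to 57779 counts per library. Its fold of 3.14 (3.09 to 3.20) was set mainly by M5F56, without which it was 1.86. M5F22 was second-highest for Ankrd1 but lowest for Ctgf, so the count ratio of Ankrd1 to Ctgf changed 5.56-fold, from 5.13 in M5F19 to 28.5 in M5F22.

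The order of libraries for the targets was not that of Tead1. M5F19 was highest for Tead1 and for all 3 targets. Of its 4 highest libraries, Ctgf shared 3 with Tead1, and Cyr61 and Ankrd1 each shared 2. M5F22, third-highest for Tead1, was lowest for Ctgf and next to lowest for Cyr61, and M5F7, lowest for Tead1, was second-highest for Ctgf. The count ratio of Ctgf to Tead1 ran from 0.400 in M5F22 to 3.05 in M5F7, a 7.62-fold change, wider than the fold of either gene. The ratio of Ankrd1 to Tead1 ran from 6.86 in M5F16 to 33.5 in M5F5.

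**Figure D3:**
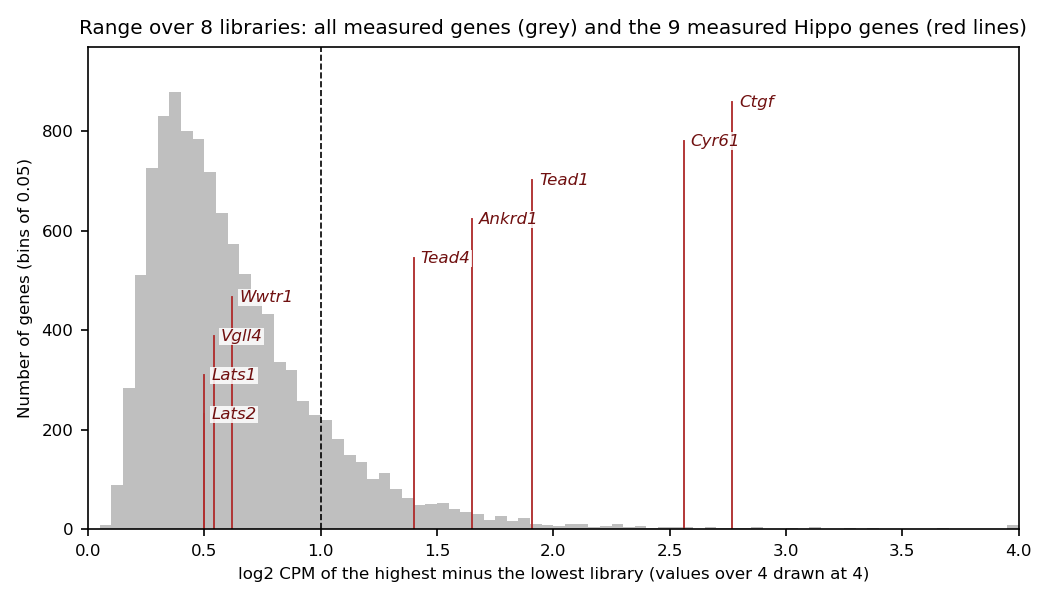
Histogram of the range of 10909 measured genes over 8 libraries, in log2 CPM of the highest minus the lowest library, with red lines at the 9 measured Hippo genes and a dashed line at 1, which is 2-fold. Lats1, Lats2, Vgll4 and Wwtr1 fall in the body of the distribution, between 0.50 and 0.62, and Ctgf (2.77) and Cyr61 (2.56) in its tail.

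Some immediate early genes, those switched on without new protein synthesis, were also high in M5F19, where Ctgf and Cyr61 peaked. Their summed level over 24 listed genes was 1314 CPM in M5F19 and 552 to 771 CPM in the other 7 libraries, with much of the difference from Atf3 and Btg2. M5F19 was highest for 8 of the 18 measured, where it was highest for 16.9% of all measured genes, and the other 10 peaked elsewhere, among them Junb and Socs3 in M5F12 and Klf4 in M5F7. Atf3, a transcription factor of the stress response, reached 273 CPM in M5F19, with 79.8 in the next library. Btg2, which restrains cell division, reached 281 CPM there with 79.0 in the next, and Ier3, an early gene of cell survival, 40.8 CPM with 15.6 in the next. Maff, a small Maf factor, spanned only 1.42-fold. Fos, Fosb, Fosl1, Egr2, Egr3 and Nr4a2 fell short of the count filter, and Fos reached at most 3.33 CPM, in M5F12. In all, 11 of the 18 measured genes spanned 2-fold, against 13.9% of all measured genes. Without M5F19 it was 9 of 18, against 11.4%.

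The fibroblast markers, 8 of 8 measured, did not show that peak. Their summed level was 1419 CPM in M5F19 within a range from 1220 in M5F55 to 1491 in M5F7. Smooth muscle and pericyte markers, 9 of 9 measured, summed to 1561 CPM in M5F19 within 1348 to 1797, and macrophage markers, 5 of 8 measured with Lyz2 not among the rows, to 95.3 CPM within 65.4 to 127. The mesothelial markers summed to at most 21.7 CPM, of which Wt1 gave 21.6. Whether the Ctgf and Cyr61 levels in M5F19 are linked to those of the early genes high there was not tested.

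Of 10 stretch and wall-stress genes, all measured, 5 spanned 2-fold, against 13.9% of measured genes, and 3 without M5F19, against 11.4%. M5F19 was highest for 7 of them and M5F56 lowest for 4, where those libraries were highest for 16.9% and lowest for 11.2% of all measured genes. Hspb1, a small heat shock protein, reached 365 CPM in M5F19 from 72.7 in M5F56, the same end libraries as Ankrd1 and Cyr61. Nppb, encoding brain natriuretic peptide, went from 260 to 1361 CPM between them. Nppa, the gene of atrial natriuretic peptide, ran from 53.2 CPM in M5F12 to 971 in M5F5, and Xirp2, a protein of the intercalated disc, spanned 1.55-fold.

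The wider list of YAP/TAZ-TEAD target genes, known from human cancer cells, did not share the spread of Ctgf, Cyr61 and Ankrd1. Of its 18 genes 16 were measured, and 2 of them spanned 2-fold, against 13.9% of measured genes. Their median fold was 1.49, against 1.45 for the median measured gene. Without M5F22 it was 1 of 16 that spanned 2-fold, against 12.7%. The summed level of the 18 listed genes was highest in M5F19 (1098 CPM), then M5F12 (1057), and lowest in M5F5 (905). Of the 16 measured genes, 4 were highest in M5F19, 2 were lowest there and 5 were highest in M5F16. Among all measured genes, 16.9% were highest in M5F19. Igfbp3, which binds insulin-like growth factors, ran from 7.92 CPM in M5F19 to 20.5 in M5F12, so that M5F19 held its lowest value. F3, the tissue factor that starts coagulation, lay between 31.3 CPM in M5F5 and 69.5 in M5F22, the library with the least Ctgf. Myof, the membrane repair gene myoferlin, spanned 1.66-fold, and Amotl2, which encodes an angiomotin that binds YAP, 1.28-fold.

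The upstream genes of the pathway ranged about as widely as genes at large. Of 34 listed kinases, adaptors and inputs 32 were measured, and 5 spanned 2-fold, against 13.9% of measured genes. Their median fold was 1.47, against 1.45 for the median measured gene. Without M5F12 it was 3 of 32 that spanned 2-fold, against 11.9%. The widest was Mob1b, which encodes a coactivator of the LATS kinases. It was at 20.6 CPM in M5F19, 19.7 in M5F22, 19.5 in M5F16, 14.7 in M5F12, 12.3 in M5F56, 11.4 in M5F55, 7.26 in M5F7 and 6.07 in M5F5, a 3.37-fold span. Its 4 highest libraries were those of Tead1, though M5F12 and M5F56, at 212 and 176 counts, had overlapping Poisson intervals. Mob1a, its close paralog, spanned only 1.23-fold.

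Map4k2, a kinase that can phosphorylate LATS, peaked in M5F7 at 45.5 CPM, with its low point of 15.7 in M5F12 (2.89-fold). Wtip, a LIM protein that restrains LATS, spanned 2.17-fold, from 3.54 CPM in M5F12 to 7.71 in M5F5. The core kinase Stk4 spanned 2.10-fold at a low level of 2.81 to 5.94 CPM, and the cadherin gene Dchs1 2.04-fold. Map4k4, a kinase upstream of LATS, was the steadiest at 1.19-fold. M5F19 was highest for 13 of the 32, where it was highest for 16.9% of all measured genes. Over the upstream genes, the targets and the remaining TEAD and VGLL genes together, 8 of 49 measured genes spanned 2-fold, or 16.3% against 13.9%.

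**Figure D4:**
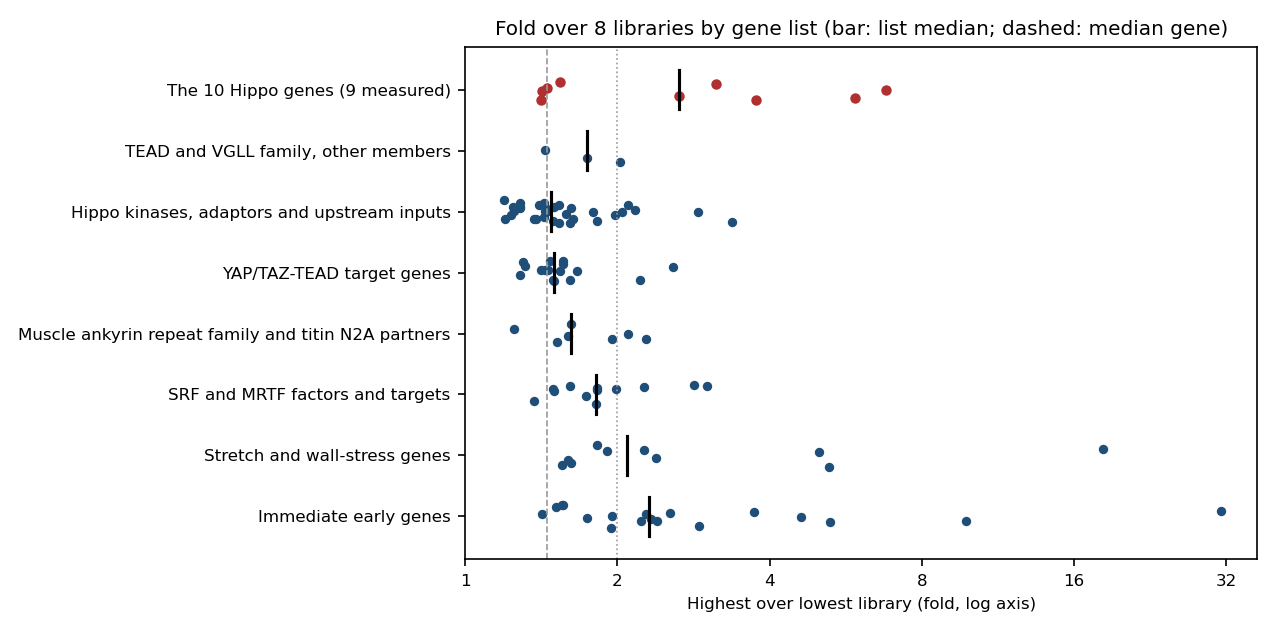
Fold of the highest over the lowest library (log axis) for each measured gene (point) of the Hippo genes and of 7 gene lists, with a bar at the list median, a dashed line at the median measured gene (1.45) and a dotted line at 2-fold. The upstream list and the target list centre near the median gene, at 1.47 and 1.49, and the immediate early list at 2.31.

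The genes most like each variable member were found by the mean absolute difference of median-centred log2 CPM over the 8 libraries, a description with no test. For Tead1 the closest were Tbx20, a cardiac T-box transcription factor, at 0.09, Hipk2, a nuclear kinase gene, at 0.11 and Cacna2d1, a calcium channel subunit, at 0.12, where the median measured gene was at 0.70. Tbx20 was at 105, 117, 146 and 120 CPM in M5F12, M5F16, M5F19 and M5F22, and at 38.3, 38.6, 62.5 and 52.6 CPM in M5F5, M5F7, M5F55 and M5F56. Hipk2 was at 26.2 CPM in M5F7 and 126 in M5F19, and Cacna2d1 from 41.5 CPM in M5F5 to 135 in M5F19. None of the other Hippo genes was nearer to Tead1 than 0.52, the value of Yap1.

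Tead4 was closest to Hoxd8, a homeobox gene (0.10), Podxl, the sialomucin podocalyxin that is abundant on endothelium (0.10), and Klf4, a flow-responsive factor of endothelium (0.11). All 3 were highest in M5F7 and lowest in M5F16, as Tead4 was, with Podxl at 309 and 161 CPM. The early gene Ier3 was the closest to Ctgf, at 0.26, followed by Slco3a1 and Rdh10 at 0.34. Cyr61 itself lay at 0.36 from Ctgf.

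Cyr61 was closest to Gadd45g, a stress-response gene (0.22), Dusp8, a phosphatase of stress kinases (0.26), and Synpo2l, a sarcomeric actin-binding protein (0.26). All 3 peaked in M5F19, with Gadd45g at 134 CPM against at most 72.1 elsewhere. Ankrd1 was closest to Otulin, a deubiquitinase (0.17), Myot, the Z-disc protein myotilin (0.17), and Acta1, skeletal alpha actin (0.18). Otulin and Myot were lowest in M5F56, at 15.2 and 153 CPM, and Acta1 in M5F16, at 3381 CPM, with 3493 in M5F56. With 8 libraries and 10909 candidates the choices for the 5 members were not stable, since leaving out 1 library kept 2 to 8 of the 15 genes. For Tead4 each such run kept 0 or 1 of its 3 genes, and scaling by total counts kept 1. Without M5F19, Ctgf, Cyr61 and Ankrd1 each kept 0 of their 3 genes, and Tead1 kept 1. The median measured gene was at 0.33 from Tead4, 0.60 from Ctgf, 0.53 from Cyr61 and 0.39 from Ankrd1.

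**Figure D5:**
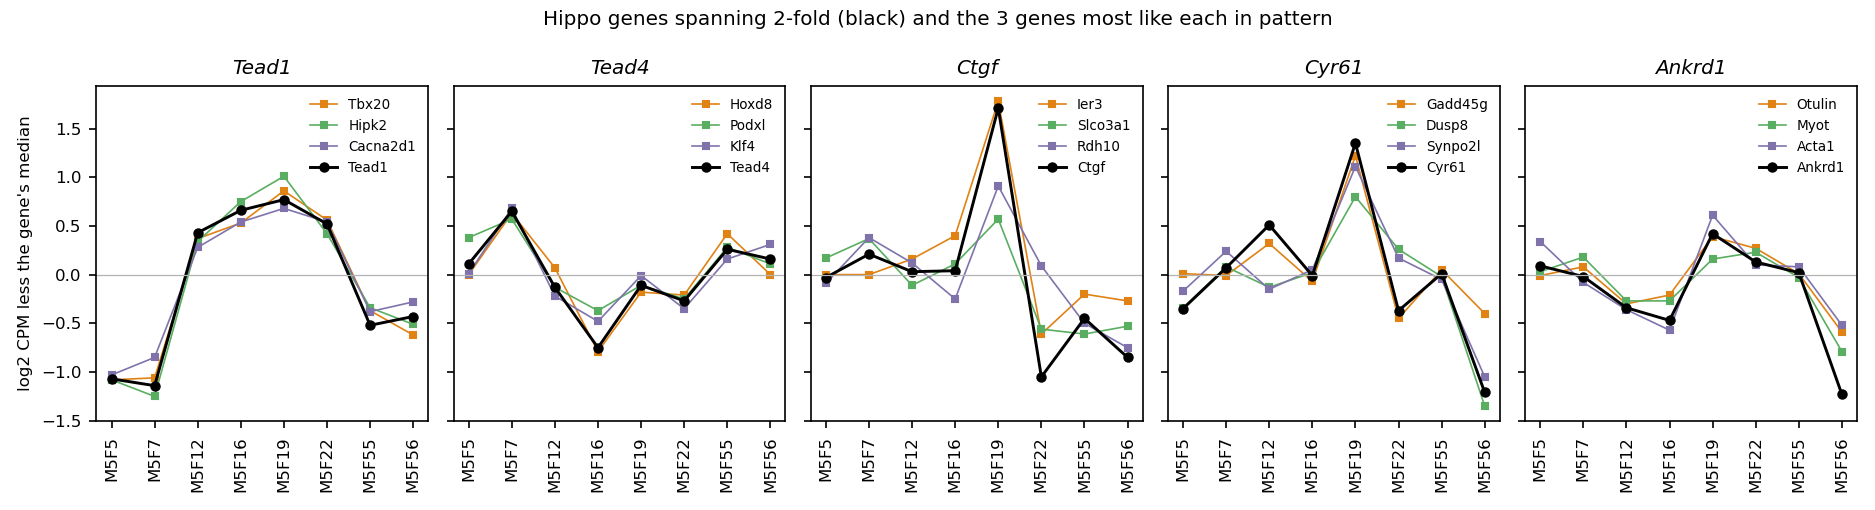
Log2 CPM less the gene's own median (vertical axis) in 8 libraries (horizontal axis) for the 5 Hippo genes spanning 2-fold (black circles) and the 3 genes most like each (coloured squares). The Tead1 panel steps between M5F7 and M5F12 and again between M5F22 and M5F55, and the Ctgf and Cyr61 panels peak in M5F19. Libraries are drawn in the order of their labels, which do not say what the codes stand for.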

How the data were processed

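PolyA RNA of 8 hearts was sequenced. The deposited values are whole-number counts per gene and library, taken as not normalized. The tools named in the submitters' processing notes are RSEM, Bowtie2 2.2.5 and HISAT2 2.0.4, with no role stated. Genome build, annotation, strandedness and any rounding of RSEM estimates: not given in the sources used here. Rows were matched by name. For 543 of 4676 LOC identifiers a symbol came from the RefSeq gene table of BCM_Maur_2.0, used for names only.

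Libraries were scaled with TMM (edgeR 4.0.16, R 4.3.3; factors 0.960 to 1.05), and log2 CPM had 0.5 as prior count. A gene was called measured where its counts averaged 50 or more. The fold is the highest over the lowest library, and intervals are exact 95% Poisson or binomial. The method was tested on simulated data. Beside the 10 members, the rule named the 3 widest and the steadiest measured gene of each list, and the 3 genes most like each variable member. Mob1a, Stk4, Dchs1, Ankrd2, Ryr2, Actc1, Tnni3, Tnnt2, Junb and Socs3 were named after their values were seen. So were genes at or near 0 (VGLL, CCN and atrial genes) and the early genes below the count filter. The members and lists were chosen with earlier results of these data known. Alternatives were DESeq2 1.42.0 size factors, total counts, other filters and prior counts, and leaving out each library. The 15 gene lists were described by counts and medians, and all 8 columns were used.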

Additional observations from a re-analysis of the deposited data

Results flagged for a closer look

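Among the 70 genes named by the rule, 9 had an end library set apart from the other 7, by a gap to its nearest neighbour of more than 0.526 of the whole log2 range. The rule flags about 1 group in 20 by chance, and 509 of all 10909 measured genes (4.67%) had such a library. Neither share applies to the 9, since the named genes were picked partly for a wide range or for likeness to Ctgf and Cyr61. The labels put these libraries in no group, so they are a set of samples and not replicates. For 5 of the genes the library was M5F19 at the high end. Ctgf was at 769 CPM there, 2.82-fold above the next library. Ier3 was at 40.8 CPM (2.62-fold), Btg2 at 281 CPM (3.55-fold), Gadd45g at 134 CPM (1.86-fold) and Ankrd23, a muscle ankyrin repeat gene related to Ankrd1, at 2560 CPM (1.51-fold). M5F19 was also set apart at the low end for Vgll4, at 24.2 CPM against 29.9 in the next library. The remaining cases were Nppb at 260 CPM in M5F56 against 640, Vgll3 at 6.10 CPM in M5F12 against 8.40, and Map4k4 at 129 CPM in M5F5 against 142.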

How the results depend on the processing

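The count of 5 Hippo genes spanning 2-fold was the same with DESeq2 size factors, total counts and a prior count of 5, and 4 or 5 when 1 library was left out. It lost Tead4 without M5F16 and Ankrd1 without M5F56. By the trimmed range the count of 2 was 1 with total counts and 1 to 2 when a library was left out, Tead1 staying above 2-fold each time (lowest 2.26). The count filter moved the background most. With no filter, 7109 of 16958 genes (41.9%) spanned 2-fold, and 3893 (23.0%) did so by the trimmed range. By the full range, 13 of 54 listed pathway genes (24.1%) and 6 of 10 Hippo genes spanned 2-fold. With a minimum mean count of 500, 324 of 4683 genes (6.92%) spanned 2-fold, and 86 (1.84%) by the trimmed range. At that filter 1 of 21 listed pathway genes (4.76%) and 4 of 6 Hippo genes spanned 2-fold by the full range. Leaving out 1 library gave 1195 to 1452 genes, 143 to 276 by the trimmed range, which is narrower by construction with fewer libraries, and 6 to 8 listed pathway genes. Of the 15 genes most like a member, 2 to 8 remained. Counts per list without each library were added after seeing the data. No paired analysis was possible because the labels give no groups. The precision of Yap1, with 10 to 29 counts, and of Tead4, with 64 to 164, is limited by depth.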

Other observations

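Genes of the SRF and MRTF factors, which share many stretch-responsive targets with YAP, were listed beside the Hippo genes. Of 12 measured genes 3 spanned 2-fold, Myocd, Cnn1 and Acta1, against 13.9% of all measured genes, and 2 without M5F19, against 11.4%. M5F19 was highest for 7, where it was highest for 16.9% of all measured genes. Myocd, the muscle coactivator myocardin, was at 15.1 CPM in M5F22, 13.6 in M5F16, 11.1 in M5F19, 10.8 in M5F12, 10.7 in M5F56, 8.95 in M5F55 and 5.0 in both M5F5 and M5F7. Its 4 highest and 2 lowest libraries were those of Tead1, though M5F12 and M5F56 differed by less than counting error. Cnn1, the smooth muscle calponin, was at 3.18 CPM in M5F16 and 9.08 in M5F19, and Mkl2, the gene of MRTF-B, spanned 1.37-fold.

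Among the relatives and titin partners of Ankrd1, Ankrd23 reached 2560 CPM in M5F19 from 1219 in M5F56, the same end libraries as Ankrd1, but the other 6 libraries lay between 1470 and 1698 CPM. Ankrd2, the relative found in slow skeletal muscle, spanned 1.60-fold. Ttn, the giant spring titin, ran from 3301 CPM in M5F22 to 7526 in M5F7. Trim63, a muscle ubiquitin ligase that binds titin, spanned 1.95-fold and Palld, an actin-bundling protein, 1.25-fold. Of the other CCN genes none was measured. Nov had at most 23 counts in a library, Wisp1 at most 8 and Wisp3 none.

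The Tead1 values fell into separate clusters, 265 to 336 CPM in M5F12, M5F16, M5F19 and M5F22 and 89.3 to 146 CPM in M5F5, M5F7, M5F55 and M5F56. The gap between 146 and 265 CPM was 1.82-fold, or 0.86 on the log2 scale. Of 10909 measured genes, 22 (0.202%, Tead1 included) had a gap as wide with at least 2 libraries on either side. That width was taken from Tead1 after its values were seen, so the share is a description and tests nothing. In the order of the codes the high cluster stands together, from M5F12 to M5F22, and the labels do not say what the codes stand for. The labels tie neither cluster to a genotype, and none was assigned.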
